A study of Mus musculus with 16 samples.

Results

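Human Dicer with a changed PAZ domain (Y971A/Y972A) was compared directly with human Dicer with a changed helicase domain (K70A), each put into mouse cells that lack their own Dicer. The comparison rests on 4 of the 16 small RNA libraries of the study, 2 with the PAZ mutant and 2 with K70A, chosen by their labels alone. All cells were mesenchymal stem cells of C57BL/6 mice. The PAZ, K70A and hsDicer groups were Dicer -/- cells transfected with the PAZ mutant, the helicase mutant or unchanged human Dicer. Dicer f/f cells with mCherry (WT) kept the mouse enzyme, and Dicer -/- cells with mCherry (KO) had none. The labels name neither the promoter of the constructs nor how much of each protein the cells made, so a change in the enzyme and a change in its amount cannot be told apart.

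Dicer cleaves a precursor hairpin close to its loop and leaves a duplex of a 5p and a 3p arm. Its PAZ domain holds the 3′ end of the precursor, from which the cutting distance is measured, and its RNase IIIB and RNase IIIA domains then cut the 5p and the 3p strand. The outer ends of the duplex (the 5′ end of the 5p arm and the 3′ end of the 3p arm) were made before that by Drosha in the nucleus. The helicase domain lies near the loop, and K70 belongs to its ATP-binding motif. Neither mutant touches the catalytic site of RNase IIIA or RNase IIIB. The question was how the products of Dicer differ when the part that anchors the precursor is changed, as against the part near its loop.

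The PAZ libraries held 17669089 and 16311845 inserts of 15 nt or more, against 14795262 and 13894746 in the K70A libraries (replicate 1 first, here and below). Reads were 41 nt long in all replicate 1 libraries and 51 nt in all replicate 2 libraries, so values are also given within each replicate number. The labels do not call the replicates separate cultures, and p-values measure only the spread between these libraries. The replicate 1 libraries were much less even: of 112 arms that averaged 100 counts per 1000000 inserts (CPM) or more over the PAZ, K70A, hsDicer and WT libraries, 36 and 4 lay under 5 CPM in the PAZ libraries and 22 and 2 in the K70A libraries. The hsDicer libraries had 24 and 1 such arms and the WT libraries 19 and 1. Within an arm, the commonest read form held a median of 99.3% and 72.2% of reads in the PAZ libraries, against 85.9% and 72.8% in K70A (69 arms). Replicate 2 of PAZ stood apart in another way. Of its inserts, 25.9% shared their last bases with an abundant insert that matched no transcript, and were counted as adapter products. The share was 0.721% in its partner and 0.402% and 8.65% in the K70A libraries. Inserts made of Dicer1 sequence, which can come from mouse or human Dicer, reached 0.170 and 13.2 CPM in PAZ, 139.8 and 12.7 in K70A and 0.0968 and 0.0626 in KO.

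The miRNA share of the inserts was lower in the PAZ library than in the K70A library of the same replicate number, but the groups overlapped. miRNA reads made up 25.8% and 6.67% of inserts in the PAZ libraries, against 31.02% and 20.4% in K70A, 38.1% and 14.4% in hsDicer, 47.4% and 37.5% in WT and 1.54% and 0.293% in KO. The means were 16.2% ± 13.5 in PAZ and 25.7% ± 7.48 in K70A (SD, n = 2 each), a difference of -9.49 percentage points (2-sided exact permutation p = 0.667, where 2 against 2 libraries cannot go below 0.333). It was 0.0815 without replicate 2 of PAZ, -19.1 without replicate 1 of PAZ, -4.20 without replicate 1 of K70A and -14.8 without replicate 2 of K70A. Counting error was small beside this, with 95% Wilson intervals of 6.66% to 6.68% for the lowest PAZ value and 20.4% to 20.5% for the lowest K70A value. Without the adapter products the shares were 25.996% and 9.002% in PAZ and 31.1% and 22.4% in K70A, and among inserts of 18 to 26 nt they were 50.7% and 12.5% against 59.5% and 41.2%. Each library of both mutants lay above KO, and the low value of replicate 2 of PAZ held with either denominator. Fewer cells with the construct and fewer miRNAs per cell cannot be told apart in such bulk libraries.

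**Figure D1:**
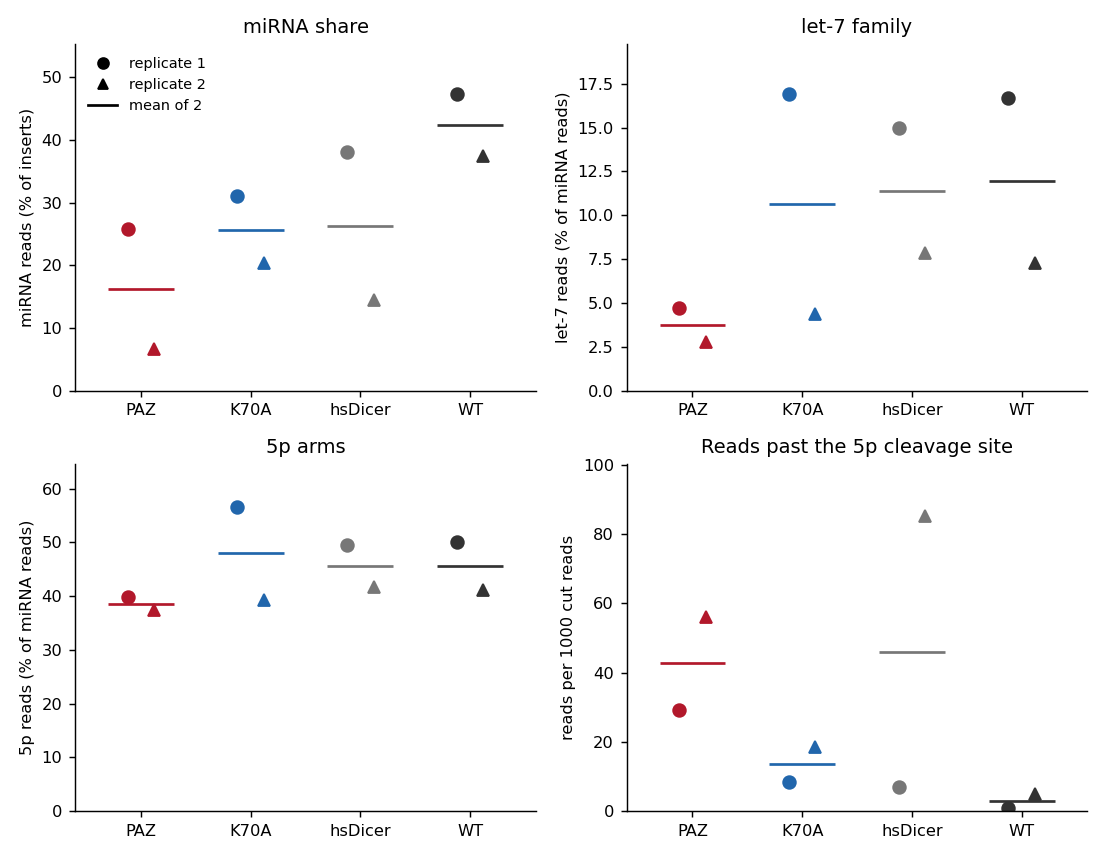
Per-library values (circle, replicate 1; triangle, replicate 2; line, mean of 2) of PAZ, K70A, hsDicer and WT for the miRNA share of inserts, the let-7 share of miRNA reads, the 5p share of miRNA reads (all in percent) and reads past the 5p cleavage site per 1000 cut reads. PAZ and K70A overlap in the first 3 panels and not in the last, where PAZ has 29.1 and 56.1 reads against 8.27 and 18.6 in K70A.

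The same few miRNAs filled both kinds of library. miR-22-3p, an abundant miRNA of mesenchymal cells, came first in all 4, with 98370 and 21812 CPM in PAZ and 79073 and 64715 CPM in K70A. As a part of the miRNA reads it was 38.1% and 32.7% in PAZ and 25.5% and 31.7% in K70A, so that both PAZ shares lay above both K70A shares, by little in replicate 2. The 10 most abundant arms of each library together held 72.2% and 73.8% of miRNA reads in PAZ and 72.2% and 75.5% in K70A. Those of the mesenchymal and fibroblast list (43 arms with reads) held 69.1% and 72.9% in PAZ and 56.8% and 72.2% in K70A, and their sums were 178220 and 48608 CPM against 176153 and 147505 CPM. That list holds miR-22, miR-21a and other arms that are abundant here, and it was chosen with earlier results of these data known. Its share therefore does not test the cell type. Markers of blood, pluripotent cells and liver were at or near 0: blood markers summed to 0 and 0 CPM in PAZ and 0 and 10.1 in K70A, pluripotent markers to 0 and 8.58 against 0.0676 and 11.7, and miR-122 to 0 in all 4. Neuronal markers summed to 0.0566 and 25.1 CPM in PAZ and 0 and 106.4 CPM in K70A. Muscle markers, nearly all miR-206-3p, summed to 953 and 77.6 CPM in PAZ and 707 and 75.2 CPM in K70A, against 0.139 and 43.8 in hsDicer and 0.231 and 112 in WT. The endothelial marker miR-126a-3p had 417 and 52.0 CPM in PAZ and 673 and 104 CPM in K70A. Their part in the results was not tested.

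No arm passed in level or in composition. Of 215 arms that averaged 10 CPM or more over the 8 libraries of PAZ, K70A, hsDicer and WT, edgeR's quasi-likelihood test called 0 higher and 0 lower at an adjusted p under 0.05 (0% in each direction), in CPM as in reads per 1000000 miRNA reads (RPMM). At an unadjusted p under 0.05, 0 arms were higher and 4 lower in level, and 1 higher and 3 lower in composition. DESeq2 with its own size factors called 1 arm, miR-452-3p, which had 46.5 CPM in replicate 2 of K70A and 0 in the other 3 libraries. The spread between libraries was wide, with a biological coefficient of variation of 1.99 for levels and 2.06 for composition. Both PAZ libraries lay below both K70A libraries for 57 arms (26.5%) and above them for 9 (4.19%) in level. In composition these counts were 38 (17.7%) and 26 (12.1%). The median log2 change, PAZ over K70A, was -1.25 in level and -0.06 in composition, and TMM scaling brought the first to -0.32 and DESeq2's to 0.06.

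Among the abundant arms, miR-21a-5p, a miRNA that is high in fibroblasts and many tumours, was lower with the PAZ mutant on both scales. It had 16782 and 3481 CPM in PAZ and 47104 and 17482 CPM in K70A, and 65025 and 52190 against 151871 and 85541 RPMM. Both PAZ values lay below both K70A values, with a log2 change in composition of -1.02 ± 0.53 (SE; edgeR adjusted p = 1). miR-99b-5p, whose hairpin lies beside that of let-7e, had 24822 and 9774 RPMM in PAZ and 60172 and 35081 in K70A, again without overlap (log2 change -1.46 ± 0.69, edgeR adjusted p = 1). In the other direction, miR-29a-3p, of a family that targets collagen mRNAs, had 33162 and 17065 RPMM in PAZ and 14245 and 7910 RPMM in K70A. miR-125b-5p had 44888 and 19605 RPMM in PAZ and 13284 and 13336 RPMM in K70A. For these 2 arms both PAZ libraries lay above both K70A libraries in composition, while in CPM the groups overlapped. miR-29b-3p, of the same family as miR-29a, overlapped at 80768 and 141499 RPMM in PAZ and 72132 and 144258 RPMM in K70A.

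miR-24-3p and miR-31-5p showed how far the replicate numbers differed from each other. miR-24-3p had 6484 and 39856 RPMM in PAZ and 8954 and 59237 in K70A, and miR-31-5p had 9608 and 58316 in PAZ and 8785 and 40160 in K70A. For both arms the gap between replicate numbers within a mutant was larger than that between the mutants of 1 number. The arms of largest change among those with 100 CPM or more on average were nearly missing from 1 or more libraries. miR-152-5p had 434 and 2.64 CPM in PAZ and 0.406 and 0 in K70A. miR-103-3p, of the miR-15/107 seed group, had 0.396 and 4.90 CPM in PAZ and 816 and 90.2 in K70A. miR-148b-5p had 0.226 and 2.76 CPM in PAZ and 412 and 12.5 in K70A, and miR-324-5p had 0.0566 and 2.94 in PAZ and 105 and 301 in K70A. Their groups did not overlap, but the standard errors of the log2 changes in level were 4.26 to 7.40 and each adjusted p was 1 (edgeR).

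**Figure D2:**
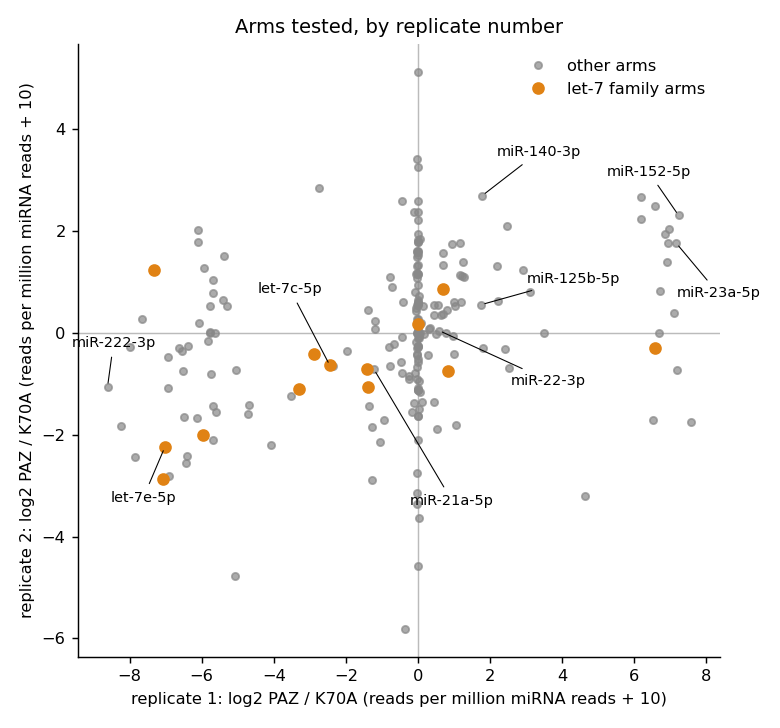
Each point is 1 of the 215 arms tested: the log2 ratio of PAZ to K70A in replicate 1 (x) and in replicate 2 (y), of RPMM with 10 added; let-7 family arms are orange. In composition 49 arms were higher and 63 lower in PAZ for both replicate numbers; points far to the left and right mark arms nearly missing from 1 of the replicate 1 libraries, and miR-140-3p lies to the upper right with ratios of 3.44 and 6.50.

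miR-140-3p was the 1 arm higher with the PAZ mutant at an unadjusted p under 0.05 in composition (chosen after its values were seen). miR-140 is known from cartilage, a tissue that mesenchymal stem cells can form. It had 28399 and 23342 RPMM in PAZ and 8256 and 3591 in K70A, against 3384 and 2393 in hsDicer and 3023 and 4662 in WT. It was higher in both PAZ libraries than in all 6 others, 3.44-fold and 6.50-fold above K70A of the same replicate number. The log2 change was 2.13 ± 0.87 (SE; edgeR unadjusted p = 0.0215, adjusted p = 1). In CPM, 7329 and 1557 in PAZ overlapped with 2561 and 734 in K70A. Its partner miR-140-5p lay the other way, with 2.85 and 3125 RPMM in PAZ and 3245 and 3788 in K70A.

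The let-7 family, conserved miRNAs that are high in differentiated cells and repress growth genes, took a smaller part of the PAZ library than of the K70A library for both replicate numbers, with overlap between the groups. All 9 of its 5p arms measured share 1 seed (bases 2 to 8, the part that pairs with targets). The sequences below, from RefSeq (GRCm38.p6) with the seed in capitals, are those of the most abundant member, the member with the lowest unadjusted p in level, a member that was not lower in composition, and miR-98, the member of largest change.
let-7c-5p: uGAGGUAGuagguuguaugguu
let-7e-5p: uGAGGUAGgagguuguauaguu
let-7a-5p: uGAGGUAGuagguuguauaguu
miR-98-5p: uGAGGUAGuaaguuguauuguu
let-7c-5p is encoded at chr15:85706616-85706637 (plus strand) and by a further hairpin on chromosome 16, and let-7e-5p at chr17:17830366-17830387 (plus strand). A copy of let-7a-5p lies at chr13:48538239-48538260 (minus strand) and miR-98-5p at chrX:151913229-151913250 (plus strand).

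All let-7 family arms together held 4.71% and 2.79% of miRNA reads in PAZ and 16.9% and 4.38% in K70A, against 15.0% and 7.84% in hsDicer and 16.7% and 7.26% in WT. Both PAZ values lay below the values of hsDicer and WT, but replicate 1 of PAZ lay above replicate 2 of K70A, and the means of 3.75% ± 1.36 in PAZ and 10.7% ± 8.89 in K70A (SD, n = 2 each) gave an exact permutation p of 0.667. The difference of -6.92 percentage points was -0.631 without replicate 1 of K70A and -13.2 without replicate 2 of K70A. Within a replicate number the K70A share was 3.601 and 1.57 times the PAZ share. In CPM the sums were 12145 and 1858 in PAZ and 52558 and 8945 in K70A, where K70A was 4.33 and 4.81 times as high. That difference of -23750 CPM was -1943 without replicate 1 of K70A and -45557 without replicate 2 of K70A. Of the K70A sum in replicate 1, 25322 CPM were let-7c-5p. Without let-7c the shares were 3.21% and 2.06% in PAZ and 8.78% and 3.25% in K70A and did not overlap (exact permutation p = 0.333, the smallest that 2 against 2 libraries can give). Leaving out let-7c was not a planned setting.

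Member by member, 7 of the 9 let-7 5p arms were lower in composition for both replicate numbers, 1 was higher for both, and 1 was mixed. For all 215 arms these counts were 63 lower and 49 higher. let-7c-5p had 14974 and 7241 RPMM in PAZ and 81640 and 11279 in K70A. Its groups overlapped, and its log2 change was -2.06 ± 0.77 (SE; edgeR unadjusted p = 0.0130, adjusted p = 1). let-7e-5p had 8.11 and 210 in PAZ and 2350 and 1033 in K70A (log2 change -3.96 ± 1.80, edgeR unadjusted p = 0.0373, adjusted p = 1). let-7d-5p had 784 and 1087 in PAZ and 7791 and 2330 in K70A. let-7f-5p had 1466 and 1767 in PAZ and 10944 and 2359 in K70A, and let-7i-5p had 11964 and 6538 against 31481 and 13735. Together with miR-98-5p, at 1.32 and 45.0 in PAZ and 1509 and 391 in K70A, these were the 5 of 9 arms with both PAZ libraries lower, beside 38 of all 215 arms (17.7%). let-7b-5p had 10251 and 2693 in PAZ and 27120 and 4435 in K70A, with overlap.

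The exceptions within the family were let-7a-5p and let-7g-5p. let-7a-5p had 5432 and 2555 RPMM in PAZ and 3380 and 1401 in K70A, higher in PAZ within both replicate numbers, although hsDicer (15224 and 3189) and WT (11639 and 3831) were higher than either mutant of the same number. let-7g-5p had 2.19 and 1853 in PAZ and 1939 and 785 in K70A, so its direction differed between replicate numbers. The median log2 change of the 9 arms in composition was -2.04, beside -0.06 over all 215 arms. In level it was -2.67, beside -1.25. None of the 9 passed in either test (edgeR, adjusted over all arms).

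**Figure D3:**
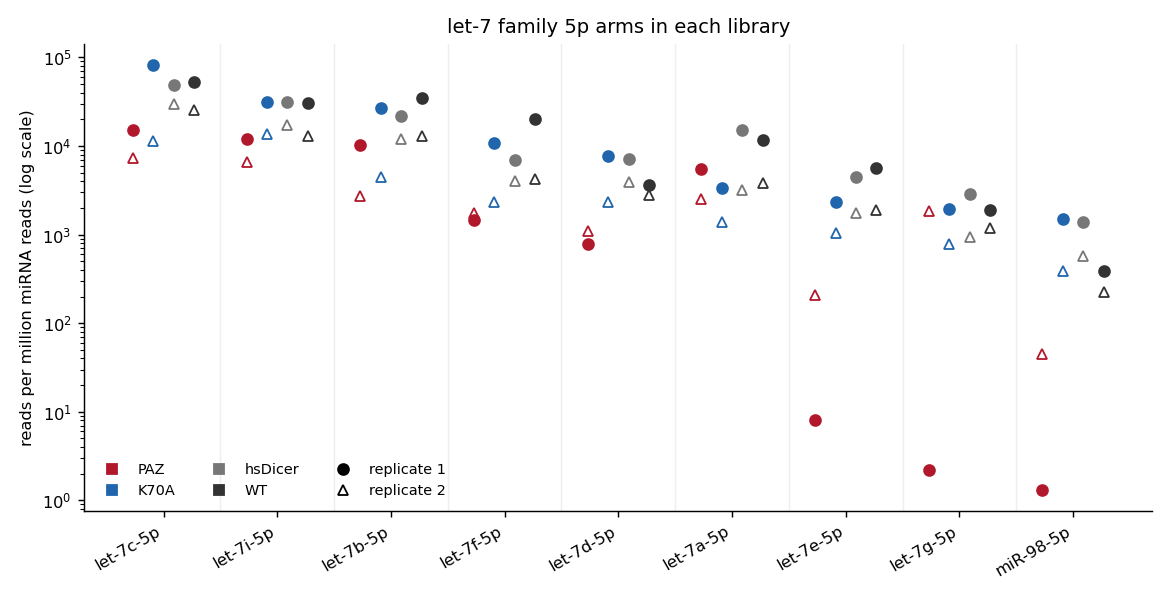
Reads per 1000000 miRNA reads (RPMM, log scale) of the 9 let-7 family 5p arms in PAZ, K70A, hsDicer and WT (filled circle, replicate 1; open triangle, replicate 2). In 7 arms PAZ lies below K70A for both replicate numbers; let-7a-5p at 5432 and 2555 in PAZ against 3380 and 1401 in K70A does not, and let-7e-5p, let-7g-5p and miR-98-5p lie at 8.11, 2.19 and 1.32 in replicate 1 of PAZ.

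Of the other families, 0 arms passed as well. For miR-17-92 and its paralog clusters, known as drivers of cell growth, 0 of 15 arms passed in composition, with a median log2 change of -0.48, and miR-92-3p had 8029 and 6336 RPMM in PAZ and 4598 and 4617 in K70A. miR-25-3p of the same list had 1238 and 2294 in PAZ and 3254 and 1677 in K70A. miR-93-5p of that list and miR-222-3p, named because their unadjusted p in level was under 0.05, had 1.30 and 34.6 CPM and 1.13 and 127 CPM in PAZ, against 1397 and 381 CPM and 1742 and 813 CPM in K70A. In the miR-30 family (0 of 9 passed, median 0.40), miR-30a-5p had 15357 and 4379 in PAZ and 10397 and 2993 in K70A, and miR-30d-5p had 12739 and 5164 against 8952 and 5267. The miR-29 family (0 of 5 passed, median 1.18, with both PAZ libraries higher for 3 and lower for 0, beside 12.1% and 17.7% of all arms) and the miR-183 cluster (0 of 3 passed, median -0.40), with miR-96-5p at 18109 and 32238 in PAZ and 7966 and 21294 in K70A and miR-183-5p at 7603 and 2168 against 9026 and 3897, did not pass either. These lists' medians stand beside -0.06 for all arms.

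Some miRNAs are made without Drosha or without Dicer, and those with enough reads were tested in the same fits. miR-320-3p, whose precursor is a capped transcript that Dicer still cuts, had 774 and 105.6 CPM in PAZ and 753 and 306 CPM in K70A, and 2998 and 1584 against 2428 and 1497 RPMM. miR-484-5p, of the same class, had 0.170 and 15.8 CPM in PAZ and 395 and 353 CPM in K70A, without overlap (edgeR adjusted p = 1). Of the 9 arms with reads in the list of mirtrons and capped precursors, 3 were abundant enough to be tested. miR-451a, cut by Argonaute 2 in place of Dicer, had 0 reads in both PAZ libraries and in replicate 1 of K70A and 4.97 CPM in replicate 2 of K70A.

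Arm choice was next. Reads of 5p arms made up 39.8% and 37.4% of miRNA reads in PAZ and 56.7% and 39.3% in K70A, against 49.4% and 41.7% in hsDicer and 50.0% and 41.2% in WT. Both PAZ libraries lay below the hsDicer and WT libraries, but replicate 1 of PAZ lay just above replicate 2 of K70A, so the mutants overlapped. The means were 38.6% ± 1.70 in PAZ and 48.0% ± 12.3 in K70A (SD, n = 2 each; exact permutation p = 0.667). The difference of -9.38 percentage points was -0.688 without replicate 1 of K70A and -18.1 without replicate 2 of K70A.

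Hairpin by hairpin, the share of reads from the 5p arm did not pass in any of 167 hairpins (0% in each direction; edgeR interaction of arm and group, 0 at an unadjusted p under 0.05 in either direction, and 0 at an adjusted p under 0.05 with limma at a pseudocount of 0.5 or 5). Among 46 hairpins with 1000 reads or more in each of the 4 libraries, the 5p percentage was higher in both PAZ libraries for 9 (19.6%), lower in both for 2 (4.35%) and overlapping for 35. The 2 that were lower were miR-140, with 0.0100% and 11.8% 5p reads in PAZ and 28.2% and 51.3% in K70A, and miR-92, with 15.9% and 14.3% in PAZ and 34.5% and 21.1% in K70A. miR-140 was at 0.0323% and 51.6% in hsDicer and 26.5% and 42.4% in WT, so low values were seen in replicate 1 of hsDicer as well. Of those that were higher, miR-151 had 91.8% and 84.6% in PAZ and 70.5% and 80.1% in K70A, miR-423 had 20.6% and 25.2% in PAZ and 7.38% and 14.0% in K70A, and miR-214 had 52.8% and 60.6% in PAZ and 0.00583% and 40.6% in K70A. miR-23a, the hairpin of largest change, had 99.9% and 14.1% 5p reads in PAZ and 0.117% and 3.57% in K70A, against 18.3% in replicate 2 of hsDicer and 0.0463% and 9.94% in WT. let-7g had 14.5% and 97.6% in PAZ and 100% and 99.2% in K70A, but rests on 69 reads in replicate 1 of PAZ. miR-27b had 0% and 0% in PAZ and 3.85% and 2.31% in K70A, with 26 reads in replicate 1 of K70A. Both arms of miR-22 and miR-21a kept their sides: miR-22 was at 0.438% 5p or less and miR-21a at 99.7% or more in all 4 libraries.

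Reads that keep the Drosha-made start of the 5p arm but run past the site where Dicer cuts were counted as reads past the site. Such reads can end inside the loop, so they need not be whole uncut precursors. miR-21a gave many reads past the site in the PAZ and K70A libraries. The sequence of its precursor (60 nt) from the 5p start to the 3p end is shown with both arms in capitals. Below it stands the commonest read that ran past the site by 5 nt or more in the PAZ libraries, with the bases past the usual 3′ end in capitals. That read is 28 nt long and ends inside the loop. The hairpin lies at chr11:86584067-86584158 (minus strand, GRCm38.p6, RefSeq).
pre-miR-21a: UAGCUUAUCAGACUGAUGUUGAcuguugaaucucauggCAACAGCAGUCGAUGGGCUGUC
miR-21a read past the site: uagcuuaucagacugauguugacUGUUG

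Over all hairpins, reads that ran 5 nt or more past the 5p site numbered 29.1 and 56.1 per 1000 cut reads in PAZ and 8.27 and 18.6 in K70A. The groups did not overlap, and PAZ was 3.52 and 3.02 times as high within the replicate numbers. The means were 42.6 ± 19.1 in PAZ and 13.4 ± 7.28 in K70A (SD, n = 2 each; exact permutation p = 0.333, the smallest possible). The difference of 29.2 was 15.7 without replicate 2 of PAZ and 24.1 to 42.7 without each other library. hsDicer spanned both mutants at 6.82 and 85.3 per 1000, and WT had 0.727 and 4.76. KO, where miRNA reads were 1.54% and 0.293% of inserts, had 511 and 7796. The values rest on 51996 and 21999 such reads in PAZ and 21319 and 20440 in K70A. Per hairpin both directions were seen: of 41 hairpins with 100 cut reads or more in each of the 4 libraries, both PAZ libraries were higher in 5 (12.2%) and lower in 3 (7.32%). Among those 3, let-7i-5p and miR-92-5p had only 1 such read each in replicate 1 of K70A. In replicate 1, 27 of the 41 had 0 reads past the site in PAZ and 28 in K70A, and in replicate 2, 14 in PAZ and 7 in K70A. The sum over these 41 was 25.005 and 42.1 per 1000 in PAZ and 5.74 and 12.9 in K70A, while the median hairpin had 0 and 12.9 in PAZ and 0 and 6.86 in K70A.

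miR-21a-5p gave 42.0 and 70.8 reads past the site per 1000 cut reads in PAZ and 5.82 and 10.1 in K70A, against 0.163 and 45.2 in hsDicer and 0.00283 and 3.59 in WT. Both PAZ libraries lay above both K70A libraries, with 12442 and 3936 such reads against 4055 and 2444. Of these, 7419 and 1429 reads in PAZ ran past by exactly 5 nt, against 1 and 785 in K70A, and 6 and 1711 in PAZ ran past by 10 nt or more, against 4052 and 1381 in K70A. The lengths thus lay far apart in replicate 1 and nearer to each other in replicate 2. The separation of the mutants held for all reads 5 nt or more past the site. It did not hold for those 10 nt or more past, where PAZ had fewer than K70A in replicate 1. miR-31-5p gave 184 and 36.2 per 1000 in PAZ and 0.868 and 10.2 in K70A. miR-183-5p, a member of a cluster known from sensory organs, gave 198.7 and 42.6 in PAZ and 0.102 and 2.37 in K70A. miR-106b-5p, of a miR-17 paralog cluster, gave 593 and 606 in PAZ and 0.779 and 31.5 in K70A, but hsDicer reached 3667 (11 reads against 3 cut ones) and 322. let-7b-5p gave 74.5 and 34.2 in PAZ and 0 and 12.1 in K70A. These are the 5 hairpins in which both PAZ libraries were higher.

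The 3 in which both were lower were miR-100-5p, with 0.141 and 0 per 1000 in PAZ and 93.04 and 42.3 in K70A, let-7i-5p, with 0 and 0 in PAZ and 0.00692 and 4.44 in K70A, and miR-92-5p, with 0 and 0 in PAZ and 0.0900 and 6.86 in K70A. In replicate 1 of K70A, let-7i-5p and miR-92-5p rest on 1 read past the site each, and miR-100-5p on 485. miR-26b-5p held 4.39% and 18.7% of all reads past the site in PAZ and 42.7% and 22.3% in K70A, and its values overlapped, at 137 and 5614 per 1000 in PAZ and 279 and 665 in K70A. Reads that end at the 3p arm's outer end and begin before the 3p cleavage site were rare in both mutants, at 0.00766 and 0.424 per 1000 in PAZ and 0.0152 and 0.469 in K70A, with overlap (exact permutation p = 0.667), where KO had 0.833 and 57.7.

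**Figure D4:**
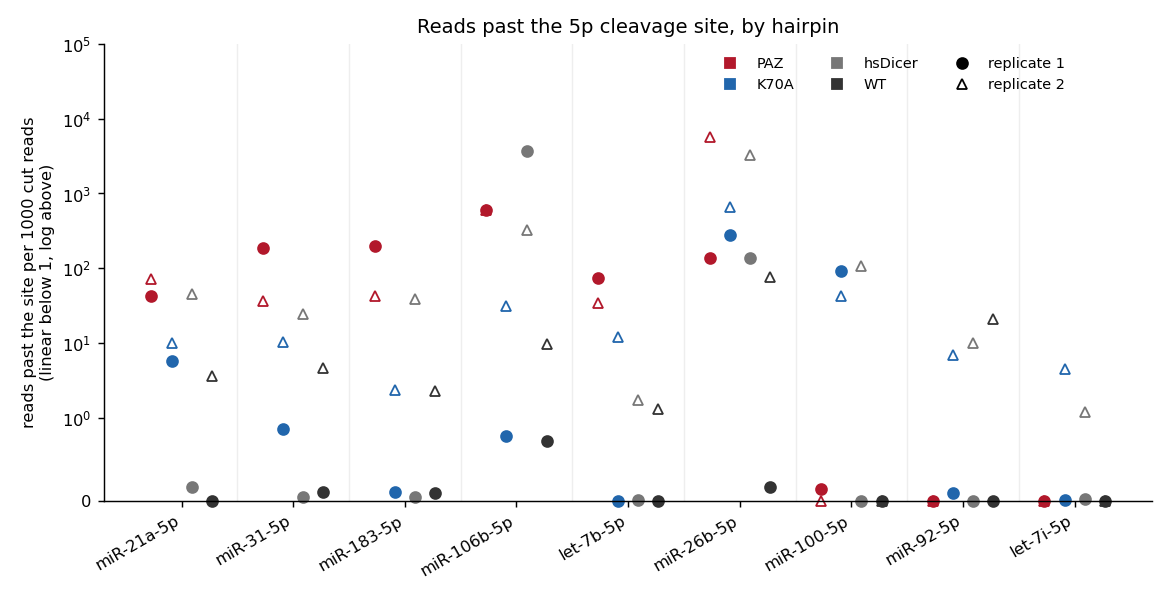
Reads that ran 5 nt or more past the 5p cleavage site, per 1000 cut reads (linear below 1, log above), for 9 hairpins in PAZ, K70A, hsDicer and WT (filled circle, replicate 1; open triangle, replicate 2). In the first 5 hairpins both PAZ libraries lie above both K70A libraries (miR-21a-5p 42.0 and 70.8 against 5.82 and 10.1), miR-26b-5p overlaps, and in the last 3 PAZ lies lower.

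End precision was then measured as the percentage of an arm's reads at its usual end, the position most used in WT. The median over arms gave no separation of the mutants at any end. At the 3′ end of 5p arms, which RNase IIIB makes, it was 94.9% and 70.03% in PAZ and 73.6% and 72.3% in K70A (42 arms). At the 5′ end of 3p arms, which RNase IIIA makes, it was 99.98% and 96.9% in PAZ and 99.99% and 95.4% in K70A (27 arms). At the outer ends made by Drosha, it was 100% and 99.9% in PAZ and 99.996% and 99.9% in K70A for the 5p 5′ end, and 99.7% and 72.6% against 99.2% and 81.1% for the 3p 3′ end. In none of the 4 was the exact permutation p under 0.667.

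No end passed on its own. Of 120 arm ends tested for the share of reads at the usual end, 0 were higher and 0 lower (0% in each direction; edgeR interaction, adjusted p under 0.05), with 1 higher and 0 lower at an unadjusted p under 0.05, the 5′ end of miR-30d-5p at 99.99% and 100% in PAZ and 85.4% and 99.1% in K70A. By limma on the mean end position (132 arm ends, chosen after seeing the data), 0 passed, 2 lay later and 4 earlier in PAZ at an unadjusted p under 0.05, and the lowest adjusted p was 0.646. Of the mean positions, both PAZ libraries lay later than both K70A libraries at 9 of 42 5p 3′ ends (21.4%) and earlier at 5 (11.9%). At the 27 3p arms they lay later at 2 (7.41%) and earlier at 7 (25.9%) of the 3′ ends, and later at 1 (3.70%) and earlier at 3 (11.1%) of the 5′ ends. At the 42 5p 5′ ends they lay later at 0 (0%) and earlier at 8 (19.0%), by small distances. Among these 8, let-7i-5p lay at 0 and 0 nt from the usual end in PAZ and 6.92e-06 and 0.00121 nt in K70A. The widest gap was at miR-183-5p, with 0.000173 and 0.0971 nt in PAZ and 0.120 and 0.234 nt in K70A.

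The lowest of those adjusted p belonged to the 3′ end of miR-21a-5p, the end that RNase IIIB makes. The 2 main read forms, which share their seed (in capitals), differ in length by 1 nt.
miR-21a-5p, 23 nt: uAGCUUAUcagacugauguugac
miR-21a-5p, 24 nt: uAGCUUAUcagacugauguugacu
The 24 nt form made up 38.0% and 41.3% of the arm's reads in PAZ and 20.6% and 20.9% in K70A, against 17.7% and 26.1% in hsDicer and 16.2% and 21.2% in WT. Both PAZ libraries lay above all 6 others, and here the replicates of each mutant lay close together. The 23 nt form made up 58.2% and 43.3% in PAZ and 69.8% and 60.9% in K70A. All reads ending 1 nt past the usual end came to 40.4% and 41.6% in PAZ and 20.6% and 21.03% in K70A, with 95% Wilson intervals no wider than 41.2% to 42.0% (replicate 2 of PAZ), and the mean end lay 0.29 nt later in PAZ (limma unadjusted p = 0.0049, adjusted p = 0.646). These are the same arm and the same side as the reads past the site described above, which ran 5 nt or more beyond this end.

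At miR-140-3p the shares of 2 5′ starts differed between the mutants, and with them the share of each seed. Its main forms begin at hairpin position 45 or 46 (chr8:107551244-107551313, plus strand), and the seed in capitals moves by 1 nt between them.
miR-140-3p, start 45, 22 nt: uACCACAGgguagaaccacgga
miR-140-3p, start 45, 21 nt: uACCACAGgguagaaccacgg
miR-140-3p, start 46, 22 nt: aCCACAGGguagaaccacggac
Reads beginning at 46, the usual start in WT, made up 15.9% and 6.02% in PAZ and 28.7% and 45.9% in K70A, against 99.9% and 34.3% in hsDicer and 75.2% and 38.4% in WT. In both PAZ libraries this was less than in all 6 others. Start 45 was the commoner start in both mutants, at 84.1% and 93.5% in PAZ and 71.3% and 53.2% in K70A. So it was in replicate 2 of hsDicer (65.0%) and WT (60.1%), but not in their replicate 1 (0.0754% and 24.8%). Position 46 is the usual start by the mean share of the WT libraries. The form of 21 nt that begins at 45, which is the RefSeq mature sequence, made up 32.1% and 32.1% in PAZ, 0.874% and 13.5% in K70A and at most 6.85% in the hsDicer and WT libraries. The 3′ end differed the same way, with 16.7% and 2.49% at the usual end in PAZ and 38.2% and 43.7% in K70A. Neither end passed in the test of end usage (edgeR adjusted p = 0.999).

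The 3′ end of 3p arms, which Drosha makes, lay earlier in both PAZ libraries for 7 of 27 arms, as counted above, and miR-140-3p and the next 3 arms are among them. miR-221-3p (chrX:19146294-19146388, minus strand), a miRNA that represses a cell cycle inhibitor, had few reads at its usual 3′ end in PAZ.
miR-221-3p, 23 nt: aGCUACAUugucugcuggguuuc
miR-221-3p, 22 nt: aGCUACAUugucugcuggguuu
miR-221-3p, 21 nt: aGCUACAUugucugcuggguu
The 23 nt form, which ends there, made up 0.0829% and 0.270% in PAZ and 34.4% and 38.4% in K70A, against 99.96% and 44.4% in hsDicer and 94.1% and 38.5% in WT. The PAZ values are 6 of 7236 and 3 of 1113 reads, with 95% Wilson intervals of 0.0380% to 0.181% and 0.0917% to 0.789%. The 22 nt form was the commonest in both mutants, at 99.9% and 60.5% in PAZ and 48.0% and 44.2% in K70A. In hsDicer it made up 0.0359% and 42.3%, and in WT 5.85% and 41.8%. The log2 change of usual against other ends was -8.55 ± 4.71 (SE; edgeR unadjusted p = 0.101, adjusted p = 0.999). miR-24-3p had 42.1% and 72.7% at its usual 3′ end in PAZ and 94.4% and 88.8% in K70A, against 94.7% and 92.8% in hsDicer and 87.2% and 80.6% in WT. miR-17-3p had 7.01% and 0.595% in PAZ and 33.5% and 24.5% in K70A, with 7.73% in replicate 2 of hsDicer. miR-214-3p was the reverse, with 99.7% and 82.5% in PAZ and 50.4% and 68.1% in K70A.

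The remaining named ends are given as values. miR-330-5p had 99.96% and 100% of reads at its usual 3′ end in PAZ and 0.123% and 33.5% in K70A, with 100 reads in its poorest library. let-7b-5p began at its usual 5′ end in 100% and 100% of reads in PAZ and 99.95% and 99.5% in K70A, and miR-151-3p in 99.98% and 95.4% in PAZ and 100% and 100% in K70A. miR-22-3p, the most abundant arm, ended at its usual 3′ position in 99.2% and 97.9% of reads in PAZ and 99.2% and 97.1% in K70A and began at its usual 5′ position in 99.2% and 99.4% against 99.1% and 98.9%. Both PAZ libraries lay higher at the 5′ end, by less than 1 percentage point, and the groups overlapped at the 3′ end. let-7c-5p ended at its usual position in 99.97% and 89.8% in PAZ and 97.9% and 92.96% in K70A, with overlap. The arms miR-140-3p at its 3′ end, miR-17-3p, miR-24-3p and miR-214-3p were chosen after their values were seen.

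**Figure D5:**
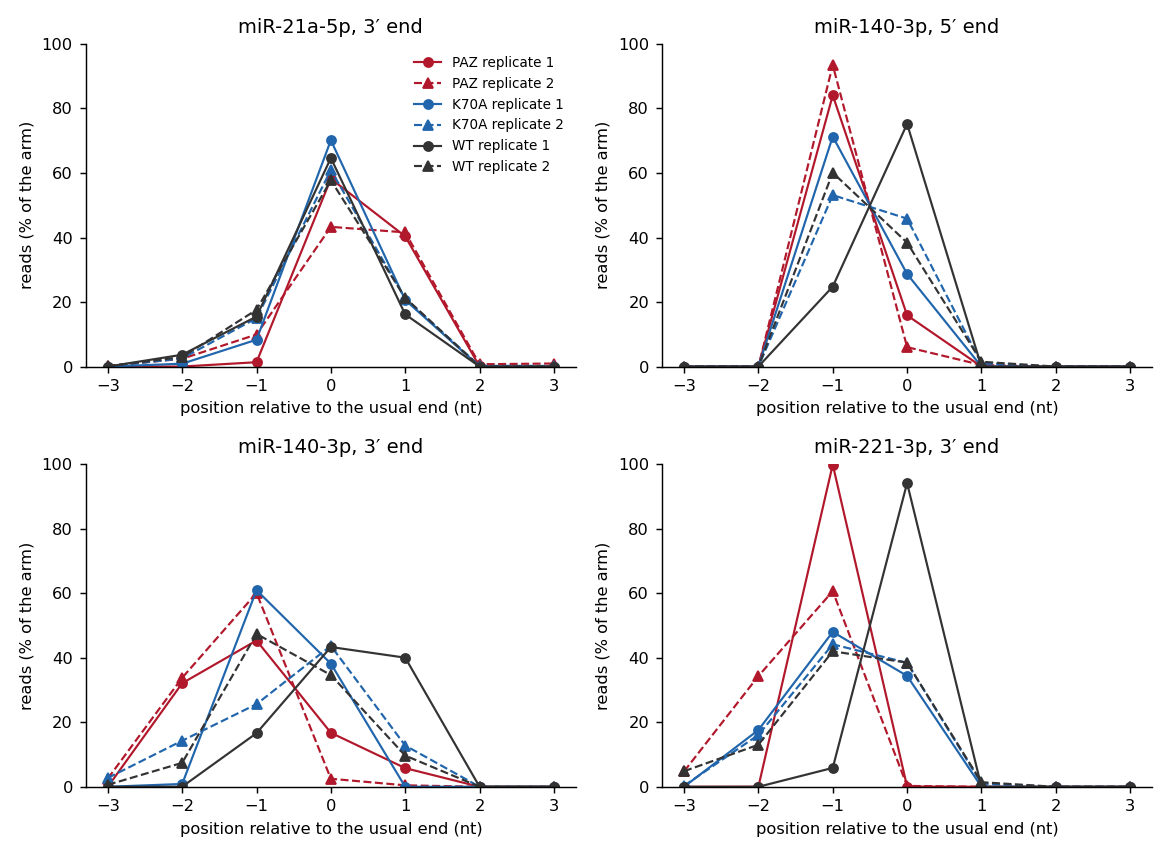
Percentage of an arm's reads (y) at each position relative to the usual end (x, nt; positive is towards the 3′ side) in PAZ, K70A and WT (solid line, replicate 1; dashed line, replicate 2). PAZ has more reads 1 nt past the usual 3′ end of miR-21a-5p (40.4% and 41.6% against 20.6% and 21.03% in K70A), fewer at the usual 5′ end of miR-140-3p (15.9% and 6.02% against 28.7% and 45.9%), and almost none at the usual 3′ end of miR-221-3p.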

How the data were processed

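Small RNA of 15 to 50 nt from 2 PAZ and 2 K70A libraries was compared, and 2 hsDicer and 2 WT libraries entered the fits for the spread. The deposited files hold counts: per the labels and the files themselves, the authors listed each distinct untrimmed read with its number, and no tool for this is named. The 3′ adapter in the labels was removed where 12 bases matched, or 5 or more at the read's end. Reads of 18 to 26 nt were matched exactly, in sense, to 1174 GENCODE M21 hairpins (GRCm38), with 1087 names. Reads matching several names were left out. Arms were split midway between RefSeq arms where both are listed, else at the hairpin's midpoint. Levels are counts per 1000000 inserts of 15 nt or more (CPM), and composition is in reads per 1000000 miRNA reads (RPMM). For reads past a site, inserts were read to 36 nt at most.

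Tests used edgeR 4.0.16 quasi-likelihood fits (R 4.3.3, Benjamini-Hochberg, 2-sided, 0.05) over 8 libraries, without a replicate block, and exact permutation for single values. Arms needed a mean of 10 CPM, hairpins 20 reads on each arm, and ends 100 reads in each of the 4 libraries compared. Log2 changes are PAZ over K70A; standard errors are change over root F. DESeq2 1.42.0, limma 3.58.1, TMM, other filters, libraries left out and the replicate block were alternatives. Tests were checked on simulated data. Intervals cover counting error only, since reads carry no molecular identifiers. Mature sequences came from RefSeq, which held 29 of the 33 arms named by the rule. That rule names the 10 most abundant arms, the 5 of largest change with 100 CPM or more and 1 direction in both replicate numbers where fewer than 3 pass, all let-7 5p arms, miR-320, miR-451a, miR-484, and 2 members of each list. Members and lists were chosen with earlier results of these data known.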

Additional observations from a re-analysis of the deposited data

Results flagged for a closer look

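Inserts made of Dicer1 sequence, which take no part in the comparisons of miRNAs, reached 139.8 CPM in replicate 1 of K70A, above 0.0968 and 0.0626 CPM in the KO libraries. The value rests on 2068 reads, and the other K70A library had 12.7 CPM. The PAZ libraries had 0.170 and 13.2 CPM. Inserts were matched to mouse Dicer1 transcripts only and not to human Dicer, so human and mouse Dicer were not separated. The part of these reads in the results was not tested.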

How the results depend on the processing

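Of 112 alternatives to the main results, 93 kept direction and side of the threshold, 14 turned sign and 5 changed the number of calls. Of 891 for named arms, hairpins and ends, 826 kept both, 64 turned and 1 changed side. The causes were not tested. DESeq2, whose own size factors make levels and composition the same fit, called 1 arm, miR-452-3p. Leaving out 1 library gave 0 to 1 calls in composition and in arm ratio: without replicate 2 of K70A, let-7c-5p passed in composition (-2.88, edgeR adjusted p = 0.0267), without replicate 2 of PAZ, miR-222-3p (-10.09, adjusted p = 0.0138) and the arm ratio of miR-22 (-9.84, adjusted p = 0.00428). Leaving out 1 library each, differences ranged from -19.1 to 0.0815 for the miRNA share, -0.253 to 0.201 for reads before the 3p site, and, for end precision, -0.0426 to 0.0738 (5p 5′), -2.93 to 21.96 (5p 3′), -1.52 to 3.11 (3p 5′) and -17.5 to 9.53 (3p 3′). Reads before the 3p site differed by 0.0888 at 3 nt and 0.0406 with inserts at full length, against -0.0262. With arms of 20 reads or more, end precision differed by -0.0914 at the 3p 5′ end and 0.136 at the 3p 3′ end, against 0.796 and -4.01.

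Log2 changes in level turned with TMM and DESeq2 scaling for miR-22-3p (0.42 and 0.58), miR-31-5p (0.14 and 0.65), miR-320-3p (0.40 and 0.50) and miR-30d-5p (0.57 and 0.63), and with DESeq2 for miR-29b-3p (0.27) and miR-126a-3p (0.078, also in composition). In composition TMM gave miR-29b-3p -0.022. Without 1 library, levels ranged from -1.72 to 0.45 for miR-22-3p, -1.39 to 1.76 for miR-125b-5p, -1.37 to 0.22 for miR-31-5p, -1.41 to 1.58 for miR-29a-3p, -1.97 to 1.46 for let-7a-5p, -4.70 to 0.64 for let-7b-5p, -2.33 to 0.55 for miR-320-3p, -1.49 to 0.81 for miR-92-3p, -2.72 to 1.80 for miR-30a-5p, -2.48 to 0.77 for miR-30d-5p, -0.67 to 0.47 for miR-96-5p, -3.64 to 0.40 for miR-183-5p, -11.93 to 9.82 for miR-128-3p, -7.38 to 7.16 for miR-219a-5p, -2.39 to 2.77 for miR-206-3p and -2.90 to 1.17 for miR-126a-3p. Composition ranged from -0.42 to 0.62 for miR-29b-3p, -2.88 to -0.022 for let-7c-5p, -2.39 to 1.37 for miR-24-3p, -1.35 to 1.95 for miR-31-5p, -2.55 to 0.55 for let-7b-5p, -9.26 to 0.44 for let-7g-5p, -0.31 to 0.61 for miR-320-3p, -0.99 to 0.074 for miR-25-3p, -0.61 to 1.72 for miR-30a-5p, -0.46 to 0.84 for miR-30d-5p, -1.58 to 0.33 for miR-183-5p, -12.52 to 11.92 for miR-128-3p, -7.74 to 9.23 for miR-219a-5p, -0.25 to 2.71 for miR-206-3p and -0.86 to 1.23 for miR-126a-3p.

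Same-numbered libraries shared a read length and deviated together over 215 arms (correlation 0.46 for PAZ and K70A, 0.34 for PAZ and hsDicer, 0.33 for PAZ and WT). The labels do not say what a number marks, and 2 numbers are too few to take the libraries as pairs. With the replicate block edgeR called 0 in levels, composition, arm ratio and end usage, with 19 arms lower in level at an unadjusted p under 0.05 against 4 without it, and let-7a-5p (-0.20), miR-92-3p (-0.18) and miR-30a-5p (-0.29) turned in level. With 2 libraries a group, exact permutation cannot pass 0.05.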
